A study of Rattus norvegicus with 6 samples.

Results

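The genes described here encode enzymes and carriers that neutralise reactive oxygen species and foreign or toxic small molecules in rat cells, together with the regulators NRF2 (Nfe2l2) and KEAP1. They were picked from the deposited gene table by their gene symbols. 161 symbols fitted the pattern, and the 130 genes whose expected counts summed to at least 10 over the 6 libraries were kept, out of the 13728 genes in all of the table as held here, whose copy ends partway through its last row. The pattern covers the glutathione S-transferases, glutathione synthesis and peroxidases, the thioredoxin and peroxiredoxin system, superoxide dismutases and catalase, cytochrome P450 families, conjugating enzymes, reductases, dehydrogenases, metallothioneins, NADPH oxidases and efflux pumps. The 3 genes just below the limit, Akr1c2, Cyp11b3 and Cyp11b2, had 7, 7 and 8 summed counts, and the 3 just above it, Akr1cl, Akr1c13 and Ephx3, had 11, 14 and 14. A symbol pattern also takes in relatives with other tasks, such as Abcb10, a mitochondrial transporter, and Cyp24a1, which breaks down vitamin D.

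Bulk RNA was sequenced from 3 samples of rat endometrial epithelial organoids (rEEOs) and 3 samples of rat bone marrow mesenchymal stem cells (rBMSCs), to find where 2 candidate cell sources for endometrial repair differ. The rEEOs had been grown from glandular fragments of the uteri of 5-week-old female Sprague–Dawley rats and were used at passages 3 to 5. They were held as droplets of Matrigel, a basement membrane extract, in DMEM/F12 with EGF, FGF10, noggin, Wnt3a, R-spondin-1 and nicotinamide. This medium also held the TGF-beta receptor inhibitor A83-01, the ROCK inhibitor Y27632, the supplements B27 and N2, and a supplement of insulin, transferrin and selenium. The rBMSCs were a purchased product that carries red fluorescent protein, grown in DMEM/F12 with fetal bovine serum. The age and sex of their donors are not given in the sources used here, and no hormone treatment is stated for either group. The Y-linked gene Eif2s3y was read in every rBMSCs library (62.8, 64.0 and 66.1 TPM, a measure of transcript abundance scaled for length and depth) and had 0 in every rEEOs library. Cell type, sex, medium and culture format therefore cannot be told apart in any comparison below. No label says that replicates came from separate cultures, so the p-values measure the spread between these samples, which may be technical.

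The cell types carried most of the markers listed for them. The summed TPM of 8 epithelial markers, led by Krt8, Epcam and Krt18, was 2.82 to 3.52 in rBMSCs and 4612 to 5216 in rEEOs. Of 9 mesenchymal markers, 8 were called lower in rEEOs, and Thy1 and Pdgfrb had 0 counts in all 3. The other, Nt5e, was scarce in rBMSCs too (1.14, 0.69 and 1.23 TPM) and did not pass (edgeR, adjusted p = 0.051). Of 7 blood cell markers held, Cd68 alone was above 1.25 TPM in rEEOs (31.8, 133 and 105 TPM). Endothelial and red cell markers each summed to at most 0.5 TPM in every library, and among adipocyte markers only Fabp4 passed 1 TPM (9.96, 103 and 137 TPM in rEEOs). Libraries held 14892115 to 15421501 expected counts in rBMSCs and 10457958 to 13883993 in rEEOs. Among the rEEOs, replicate 1 stood apart, lying over 2-fold above both others for 21.9% of the 9348 tested genes with a mean of at least 1 TPM there.

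As background, cells handle toxic molecules in steps. Cytochrome P450 enzymes, reductases and dehydrogenases add or expose reactive groups, transferases then attach glutathione, glucuronic acid or sulfate, and pumps of the ABC family export the products. Glutathione and thioredoxin also supply the electrons with which peroxidases remove hydrogen peroxide. The transcription factor NRF2 is held down by KEAP1 and, when released, binds antioxidant response elements in many of these genes. Epithelia that face a lumen, such as those of gut and airway, are known for several of these enzymes and pumps.

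The antioxidant response element core was searched on both strands as TGACNNNGC in the 250 bases before and 50 bases after each RefSeq gene start (assembly GRCr8), where N is any base. 110 of the 130 genes matched an entry, with 119 windows. The core was present in 22 of the 119 windows (18.5%), against 12.1% of all 33469 windows and 12.5% of the 21842 windows of protein-coding genes. The comparison windows were not limited to genes with counts, as the 130 genes were. It overlapped the AP-1 motif TGACTCA in 4 of the 22 genes (Gstp1, Prdx1, Ephx1 and Cyp26b1), a motif added after the data had been seen. The stretches below belong to 7 genes whose expression is described further on, with the core in capitals, shown 5′ to 3′ on the strand of the gene. They lie at chr1:210769738-210769786 (minus strand) for Gstp1, chr2:213031943-213031991 (plus) for Gclm, chr6:101230034-101230066 (minus) for Gpx2, chr5:135383751-135383799 (plus) for Prdx1, chr7:22755954-22756002 (minus) for Txnrd1, chr13:95263146-95263194 (minus) for Ephx1 and chr1:50050175-50050223 (minus) for Sod2.
Gstp1: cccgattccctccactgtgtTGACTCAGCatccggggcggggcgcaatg
Gclm: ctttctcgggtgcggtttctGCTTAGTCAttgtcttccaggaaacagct
Gpx2: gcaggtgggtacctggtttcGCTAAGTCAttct
Prdx1: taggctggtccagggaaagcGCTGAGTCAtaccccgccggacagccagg
Txnrd1: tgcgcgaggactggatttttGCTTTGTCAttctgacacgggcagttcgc
Ephx1: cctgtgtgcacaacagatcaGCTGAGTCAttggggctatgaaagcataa
Sod2: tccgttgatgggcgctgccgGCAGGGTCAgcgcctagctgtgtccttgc
In Gstp1 the core reads along the strand of the gene, and in the other 6 it reads on the opposite strand. A match is a description of the letters, not evidence of binding.

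**Figure D1:**
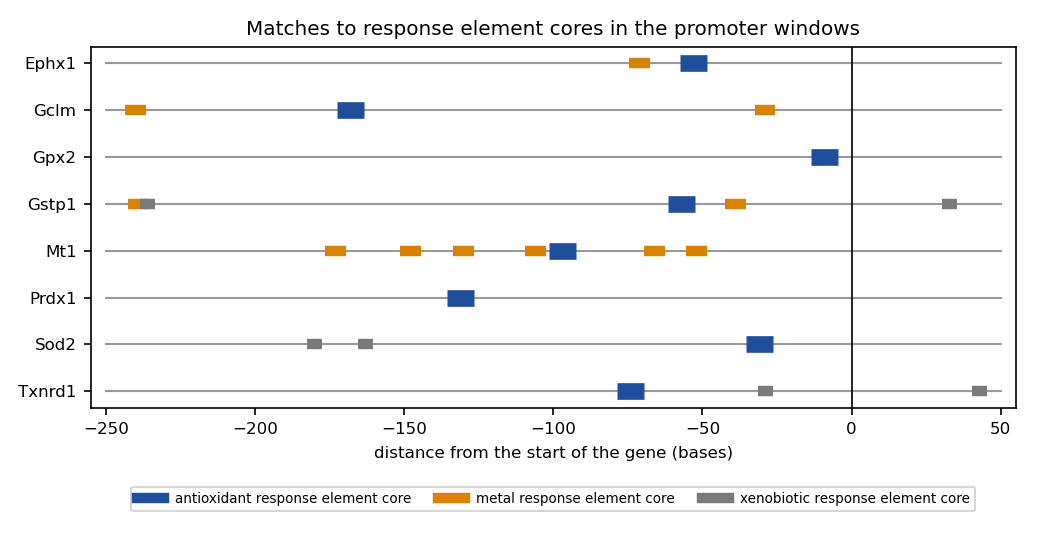
Positions of the antioxidant, metal and xenobiotic response element cores in the promoter windows of 8 genes, plotted as distance from the gene start in bases (0 marks the boundary before the first base of the gene). Each window runs from 250 bases before to 50 bases after the start, and the 6 metal response element cores of Mt1 stand out from the 0 to 2 in the other 7 genes.

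The levels of these genes differed strongly between the cell types. Their summed TPM was 8057 ± 168 in rBMSCs and 22621 ± 3127 in rEEOs (mean ± SD, n = 3 each), with no overlap between the groups. In bulk RNA, fewer cells of a kind and less RNA per cell cannot be told apart. Metallothionein Mt1 made up a large part of the rEEOs sum, and without it the rEEOs sum was 15429 ± 1547. 112 of the 130 genes had at least 10 counts in at least 3 libraries and were tested with edgeR. Of these, 42 were called higher in rEEOs (37.5%) and 12 lower (10.7%), a call meaning an adjusted p below 0.05 and an absolute log2 fold change above 2. Over all 10607 genes tested, 16.3% were called higher and 13.3% lower. At the adjusted p alone, 65 of the 112 were higher and 22 lower, against backgrounds of 33.3% and 30.2%, and 25 did not pass. The TPM ranges of the cell types did not overlap for 57 genes with rEEOs higher (background 31.1%) and 26 with rEEOs lower (background 38.4%). The median log2 fold change was 1.07, beside 0.08 over all genes tested.

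Part of this count came from genes read almost only in one cell type. 20 of the 112 had at most 3 counts in every rBMSCs library and 6 had at most 3 in every rEEOs library, together 23.2% against 12% of all genes tested. A gene absent from one cell type could enter the test only through the other. Among the 70 genes with at least 10 counts in all 6 libraries, 16 were called higher (22.9%) and 3 lower (4.29%), against 7.21% and 6.9% of the 8353 such genes in the table. The 18 genes not tested were Aldh3a1, Aldh8a1, Cyp26b1, Cyp26c1, Cyp2c11, Cyp2s1, Cyp3a9, Akr1c12l1, Akr1c13, Akr1cl, Ephx3, Maob, Sult1a1, Ugt8, Gstm5, Mt3, Duox1 and Nox4.

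**Figure D2:**
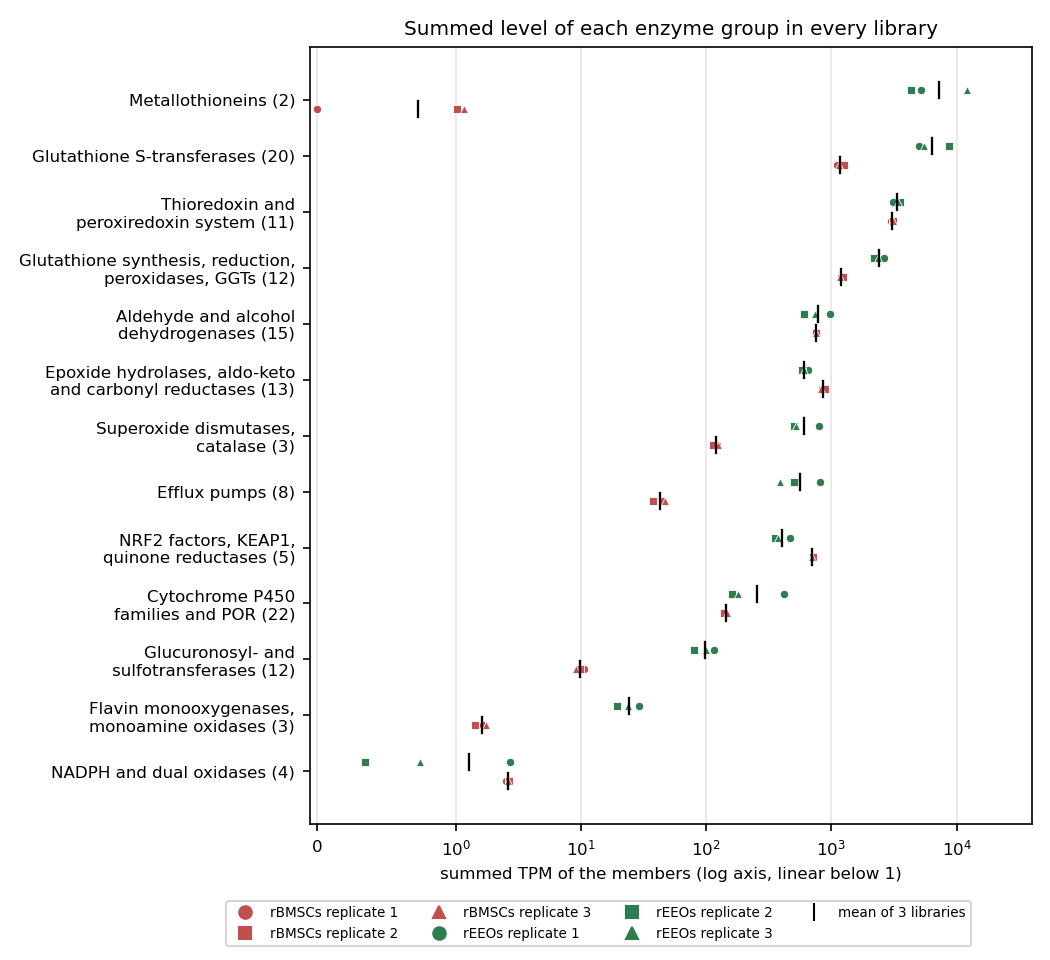
Summed TPM of the genes of each enzyme group in every library, on a log axis that is linear below 1, with the number of genes in brackets and a black bar at the mean of 3 libraries. Metallothioneins, glutathione S-transferases and efflux pumps were higher in every rEEOs library than in any rBMSCs library, while the epoxide hydrolase and reductase group and the NRF2, KEAP1 and quinone reductase group were lower in every rEEOs library.

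**Figure D3:**
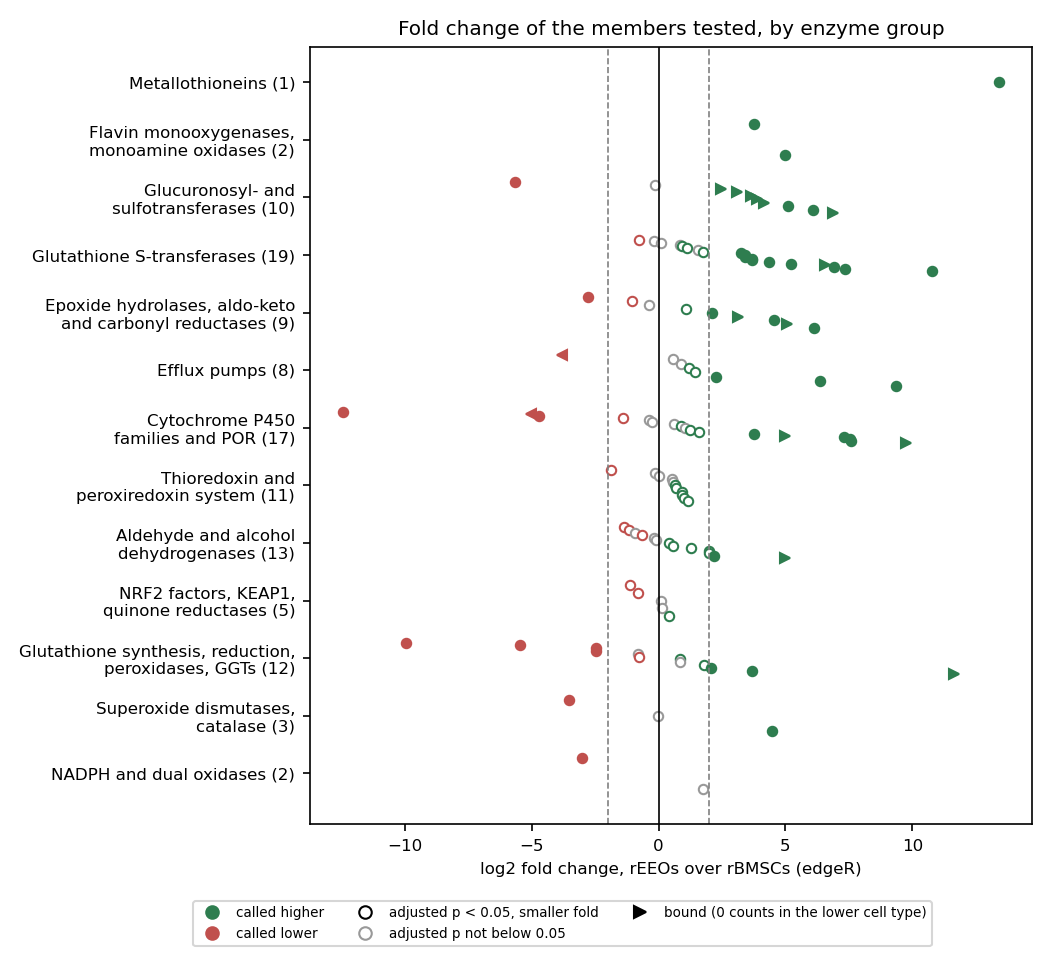
Fitted log2 fold change of rEEOs over rBMSCs (edgeR) for the 112 genes tested, by enzyme group with the number tested in brackets, with dashed lines at -2 and 2. Filled green and red symbols are the 42 and 12 genes called higher and lower, open symbols passed the adjusted p alone or neither test, and triangles are bounds for genes with 0 counts in one cell type.

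The NRF2 regulators themselves differed little. Nfe2l2 stood at 142, 137 and 135 TPM in rBMSCs and 197, 129 and 137 TPM in rEEOs, so the groups overlapped on the TPM scale. Its fitted log2 fold change was 0.39 ± 0.12 (SE; edgeR, adjusted p = 0.0252), and replicate 1 was the only rEEOs library above all 3 rBMSCs. The adjusted p was 0.108, 0.0838 and 0.125 without rBMSCs replicates 1, 2 and 3 in turn, 0.104 with the replicate block and 0.524 in limma on TPM. Keap1, the adaptor that hands NRF2 to the ubiquitin ligase, had 26.8, 25.2 and 24.6 TPM in rBMSCs and 26.3, 23.3 and 20.5 TPM in rEEOs. Its log2 fold change of 0.13 ± 0.14 did not pass (adjusted p = 0.453), and turned to -0.13 in limma on TPM. Nqo1, a quinone reductase often used as an NRF2 readout, was lower in rEEOs, with 413, 425 and 417 TPM in rBMSCs and 139, 164 and 166 TPM in rEEOs (log2 fold change -1.13 ± 0.23, adjusted p = 0.00505). The groups were well apart, and Nqo1 was the fifth most abundant of all 130 genes in rBMSCs. Nfe2l1, a relative of NRF2, also fell by 0.82 on the log2 scale (edgeR, adjusted p = 0.0474). It did not pass when any rBMSCs library or rEEOs replicate 2 or 3 was left out (adjusted p = 0.078 to 0.131). With library size only it was -0.42 (adjusted p = 0.283). Nqo2 did not pass (adjusted p = 0.816).

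A separate list held 14 further NRF2 targets outside these genes. 13 were held and tested, and 7 were higher and 3 lower at the adjusted p, against 33.3% and 30.2% of all genes tested. Only 2 were called higher, a share close to the 16.3% of all genes tested, and none was called lower. Hmox1, which degrades heme, rose from 80.5, 86.9 and 91.6 TPM in rBMSCs to 282, 713 and 1047 TPM in rEEOs (log2 fold change 3.34 ± 0.58, adjusted p = 0.00285). Osgin1, an oxidative stress response gene, rose by 2.63 on the log2 scale. Taldo1 and Tkt, enzymes of the pentose phosphate pathway, rose by 1.5 and 0.92, whereas Pgd, which produces NADPH in the same pathway, did not pass (0.20, adjusted p = 0.346). Me1, another NADPH producer, was lower (-1.19), as were Blvra and Slc3a2. Among 5 held NRF2 partners and competitors, 4 were tested, of which Maff was called higher (log2 fold change 2.07) and Cul3, the scaffold of the KEAP1 ligase, was lower at the adjusted p (-0.54). The Maff call was lost under limma, the replicate block and without rEEOs replicate 2 or 3.

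Glutathione is made by glutamate-cysteine ligase, whose catalytic subunit is Gclc and whose modifier subunit is Gclm, and then by Gss. The subunits moved in opposite directions. Gclm had 30.4, 25.2 and 26.1 TPM in rBMSCs and 184, 417 and 222 TPM in rEEOs (log2 fold change 3.67 ± 0.46, adjusted p = 0.000679). Gclc had 71.8, 68.4 and 79.0 TPM in rBMSCs and 32.9, 39.4 and 34.2 TPM in rEEOs (log2 fold change -0.76 ± 0.21, adjusted p = 0.0199), but the adjusted p was 0.0539 to 0.0692 in 4 of the 6 fits that left out 1 library. The Gclm to Gclc ratio of TPM was therefore 0.424, 0.368 and 0.33 in rBMSCs and 5.58, 10.6 and 6.5 in rEEOs. All 3 rEEOs ratios lay above all 3 rBMSCs ratios, for which the smallest p of an exact two-sided permutation test of 3 against 3 is 0.1. Gss rose by 0.83 ± 0.12 (adjusted p = 0.00108). Gsr, which regenerates reduced glutathione, had 38.5, 38.1 and 37.6 TPM in rBMSCs and 174, 89.5 and 80.5 TPM in rEEOs (log2 fold change 1.78 ± 0.19, adjusted p = 0.000355). Ggt7, of the gamma-glutamyltransferase family, was called lower (-2.48, adjusted p = 0.00014), and Ggt5 did not pass (adjusted p = 0.384).

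The glutathione peroxidases parted by member. Gpx2, the gastrointestinal type found in epithelia, had 0 counts in all 3 rBMSCs and 1539, 685 and 1075 TPM in rEEOs, at least 3197-fold higher against a floor of 3 counts per library (adjusted p = 4.2e-05). It was the third most abundant of the 130 genes in rEEOs. Gpx1, the widespread cytosolic form, was also higher, with 105, 121 and 107 TPM in rBMSCs and 308, 430 and 388 TPM in rEEOs (log2 fold change 2.08 ± 0.28, adjusted p = 0.000984), a fold that fell to 1.89 without rEEOs replicate 2 and so below the fold limit. Gpx2 exceeded Gpx1 by 5.0, 1.59 and 2.77-fold in the 3 rEEOs. Gpx4, which reduces lipid peroxides in membranes, did not pass, with 295, 301 and 280.0 TPM in rBMSCs and 272, 476 and 486 TPM in rEEOs (log2 fold change 0.84 ± 0.35, adjusted p = 0.0763). Without rEEOs replicate 1, the lowest of the 3, it was 1.19 and passed (adjusted p = 5.8e-05).

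Gpx3, the secreted plasma form, was lower in rEEOs, with 29.0, 28.8 and 28.8 TPM in rBMSCs and 4.72, 0.74 and 7.88 TPM in rEEOs. Its log2 fold change was -2.45 ± 0.69 (adjusted p = 0.0199), and the call rested on single libraries, since the adjusted p was 0.0515, 0.056 and 0.0519 without rBMSCs replicates 1, 2 and 3 and the fold was -1.95 without rEEOs replicate 2 and -3.35 without replicate 3. 3 peroxidases that reside in the endoplasmic reticulum, Gpx7, Gpx8 and Prdx4, were put side by side after their values had been seen. Gpx7 had 345, 368 and 349 TPM in rBMSCs and 13.5, 2.04 and 5.94 TPM in rEEOs (log2 fold change -5.47 ± 0.53, adjusted p = 0.000215). Gpx8 had 226, 225 and 206 TPM in rBMSCs and 3, 0 and 2 counts in rEEOs, a ratio of 1049 (95% exact counting interval 449 to 3233), with some fractional counts. Gpx8 was thus nearly absent from rEEOs, and Gpx7 remained at a low level there. Prdx4 fell less, from 368, 361 and 353 TPM to 120.0, 56.1 and 79.8 TPM (log2 fold change -1.86 ± 0.17, adjusted p = 0.000188), under the fold limit, though limma placed it beyond.

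**Figure D4:**
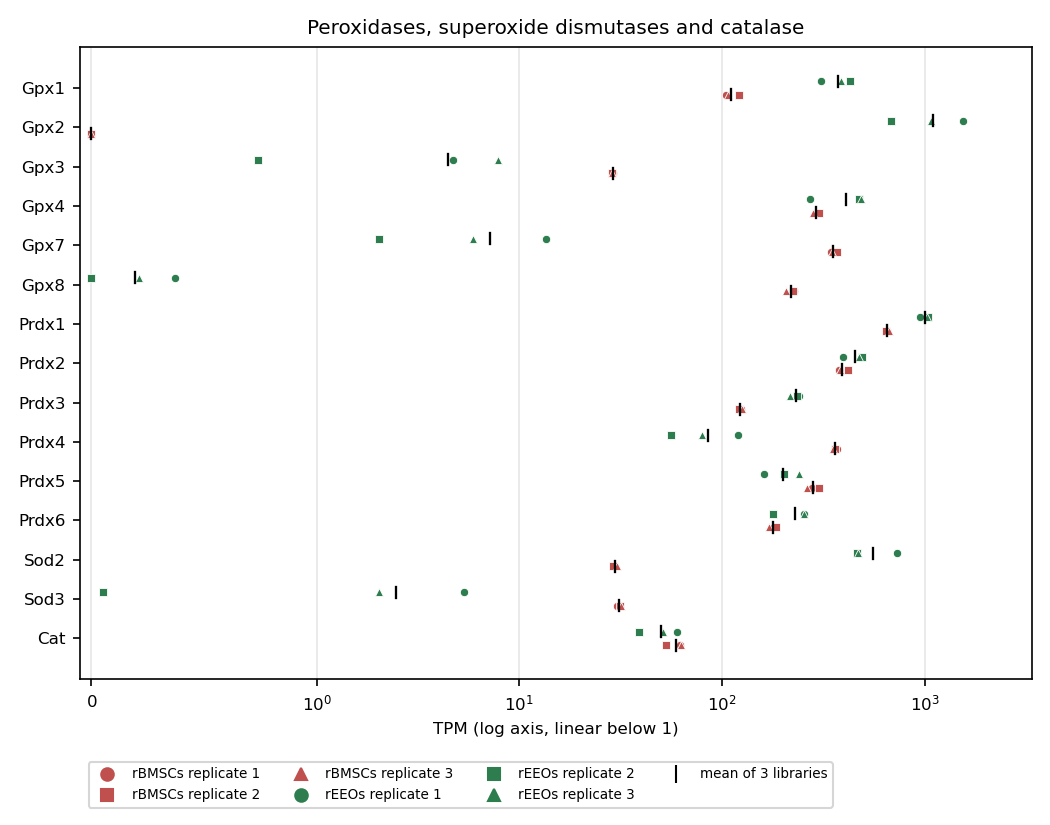
TPM of the glutathione peroxidases, peroxiredoxins, superoxide dismutases and catalase in each library, on a log axis that is linear below 1, with a black bar at the mean of 3 libraries. Gpx2 and Sod2 lie far to the right in rEEOs, and Gpx3, Gpx7, Gpx8, Prdx4, Prdx5 and Sod3 lie to the left, while Gpx4, Prdx2, Prdx6 and Cat overlap between the cell types.

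The superoxide dismutases Sod2 and Sod3 went in opposite directions. Sod2, the mitochondrial enzyme, had 29.2, 29.1 and 30.5 TPM in rBMSCs and 730.2, 466 and 468 TPM in rEEOs (log2 fold change 4.45 ± 0.15, adjusted p = 5.8e-06). All rEEOs libraries were over 10-fold above all rBMSCs. Sod3, the extracellular enzyme, had 30.4, 31.3 and 31.7 TPM in rBMSCs and 5.34, 0.05 and 2.04 TPM in rEEOs (log2 fold change -3.54 ± 0.89, adjusted p = 0.0131), and without rEEOs replicate 3 its adjusted p was 0.0529, while without replicate 1 the log2 fold change was -4.45. The spread within rEEOs was wide, since replicate 2 rested on 1 count. Catalase (Cat), which breaks down hydrogen peroxide in peroxisomes, had 62.3, 52.9 and 63.1 TPM in rBMSCs and 60.2, 38.8 and 51.0 TPM in rEEOs. Its log2 fold change of -0.01 ± 0.14 (adjusted p = 0.947) changed sign in several alternatives. The cytosolic Sod1 was not analysed here.

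None of the 11 thioredoxin and peroxiredoxin genes was called by fold, though 6 were higher and 1 lower at the adjusted p alone. Over all genes tested these shares were 33.3% and 30.2%. The 11 genes had a summed TPM of 3058 ± 67.7 in rBMSCs and 3342 ± 201 in rEEOs. Prdx1, the cytosolic peroxiredoxin, had 650.3, 644 and 664 TPM in rBMSCs and 949, 1040 and 1027 TPM in rEEOs (log2 fold change 0.93 ± 0.21, adjusted p = 0.00789). Mitochondrial Prdx3 rose by 1.18 (adjusted p = 0.00101), and Prdx6 by 0.63 (adjusted p = 0.0146). Prdx2 and Prdx5 did not pass, though Prdx2 did without rEEOs replicate 1 (0.77, adjusted p = 0.000768). Txnrd1, the cytosolic reductase that recharges thioredoxin, had 91.2, 94.3 and 97.5 TPM in rBMSCs and 194, 104 and 95.9 TPM in rEEOs, where replicate 3 fell inside the rBMSCs range (log2 fold change 0.67 ± 0.18, adjusted p = 0.0164). Txnrd2 and Txnrd3 rose by 0.93 and 0.99. Txnrd3 did not pass in edgeR when any rBMSCs library or rEEOs replicate 2 or 3 was left out (adjusted p = 0.0721 to 0.115). Txnrd2 did not pass in limma on TPM (adjusted p = 0.0682 and 0.0651). Thioredoxin itself, Txn1, did not pass (log2 fold change 0.56 ± 0.36, adjusted p = 0.211), but did so without rEEOs replicate 1 (0.88, adjusted p = 0.00288). Its TPM of 667 to 1086 over the 6 libraries rested on only 232 to 478 counts, few for such a level.

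Of the 20 glutathione S-transferases, which join glutathione to reactive molecules, 19 were tested, 11 were called higher and none lower, and 14 were higher and 1 lower at the adjusted p alone. Over all genes tested, 16.3% were called higher and 13.3% lower. Gsta3, Gsta5 and Gstt3 had at most 3 counts in every rBMSCs library and were tested only through rEEOs. The summed TPM of the 20 transferases was 1170 ± 82.8 in rBMSCs and 6361 ± 2001 in rEEOs. Gstp1, the pi-class enzyme, supplied 61.4% of the rEEOs sum, with 457, 582 and 507 TPM in rBMSCs and 3125, 5738 and 2854 TPM in rEEOs (log2 fold change 3.26 ± 0.43, adjusted p = 0.00081). It was the second most abundant of the 130 genes in rEEOs and already the fourth in rBMSCs. Gstt3, of the theta class, was close to absent from rBMSCs, with 1, 3 and 3 counts there and 229, 230.2 and 208 TPM in rEEOs, a ratio of 1793 (95% counting interval 870.1 to 4461). The other theta genes Gstt1 and Gstt2 rose by 3.41 and 3.68. All 3 theta genes were therefore higher in every rEEOs library.

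The microsomal transferases, which sit in membranes, behaved alike in direction. Mgst1 had 2.73, 3.88 and 3.83 TPM in rBMSCs and 280.2, 335 and 395 TPM in rEEOs (log2 fold change 6.90 ± 0.37, adjusted p = 2.2e-05). Mgst2 rose by 3.42 and Mgst3 by 4.34. Gstm1, of the mu class, had 35.2, 39.9 and 38.5 TPM in rBMSCs and 156, 539.8 and 359.7 TPM in rEEOs (log2 fold change 3.68 ± 0.59, adjusted p = 0.00202). Its neighbours in the class differed less, since Gstm2 rose by 1.11 (adjusted p = 0.0154) and Gstm3 was the 1 transferase that fell, by 0.77 on the log2 scale (adjusted p = 0.00825). Gstm7 did not pass (1.54 ± 0.85, adjusted p = 0.152), but met both limits without rEEOs replicate 1 (2.06, adjusted p = 0.0178).

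In the alpha class, Gsta4, which conjugates the lipid peroxidation product 4-hydroxynonenal, had 3.73, 3.26 and 3.04 TPM in rBMSCs and 15.8, 147 and 115 TPM in rEEOs (log2 fold change 5.21 ± 0.99, adjusted p = 0.00411). rEEOs replicate 1 was far below the other two, and the log2 fold change was 5.76 without it. Gsta5 was also lowest in rEEOs replicate 1, with 4.06, 26.8 and 35.6 TPM in rEEOs against 0, 2 and 1 counts in rBMSCs (ratio 166, 95% counting interval 56.3 to 806). Gsta3 had 0 counts in rBMSCs and was at least 93.1-fold higher in rEEOs. Gsta1 did not pass, with 19.8, 20.5 and 33.3 TPM in rBMSCs and 27.5, 15.5 and 12.7 TPM in rEEOs. Gsta1, Gsta3, Gstm3, Gstm5 and Gstt2 held fractional counts, reads that the counting had shared among similar genes, so their values are less certain. Of the omega, kappa and other forms, Gsto1 and Gstk1 rose by 0.94 and 1.76, and Gsto2 and Gstcd did not pass, though Gsto2 did without rEEOs replicate 1 (1.04, adjusted p = 0.0339).

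**Figure D5:**
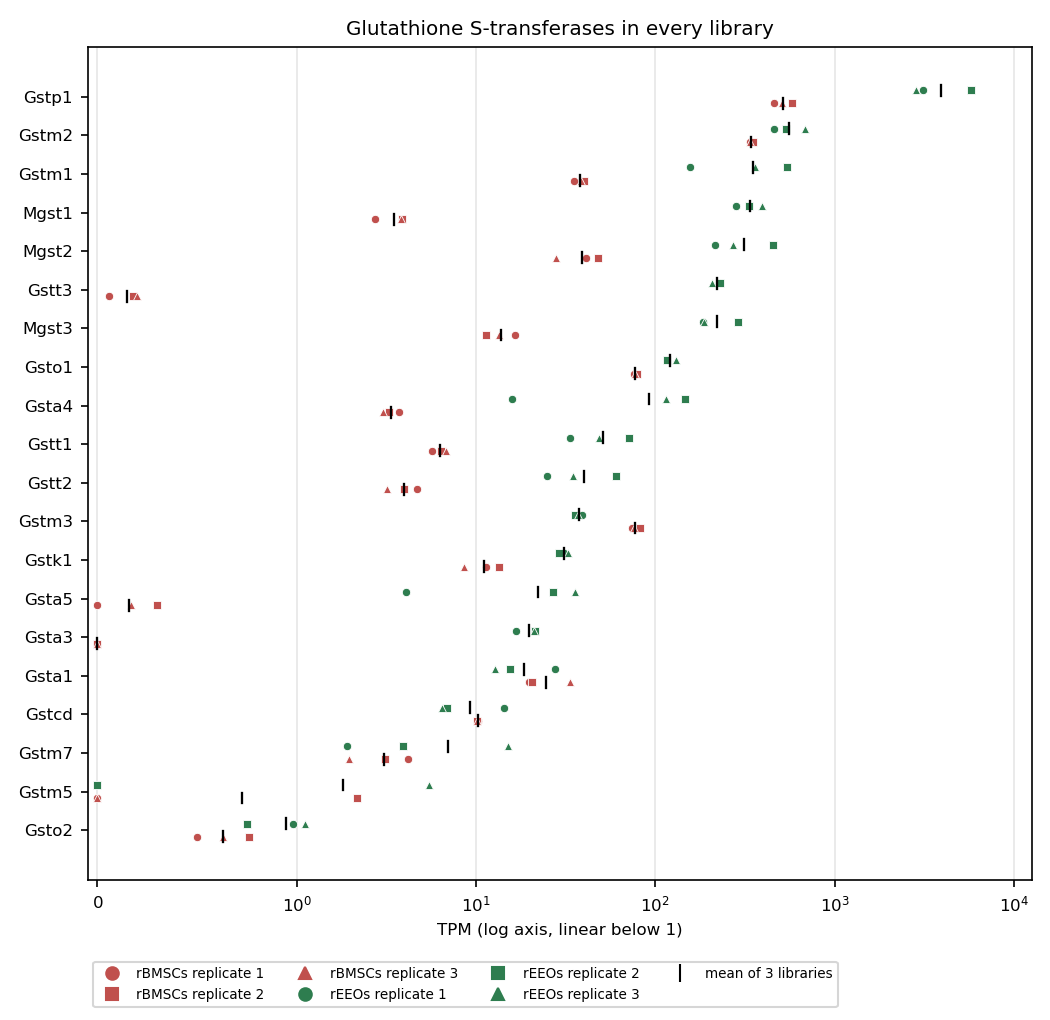
TPM of the 20 glutathione S-transferases in each library, ordered by the rEEOs mean, on a log axis that is linear below 1, with a black bar at the mean of 3 libraries. Gstp1 tops both cell types in the plot, Gstt3, Mgst1 and Gsta3 are widely apart between cell types, and Gstm3 is the only gene with all rEEOs points left of all rBMSCs points.

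Mt1, a metallothionein, a small cysteine-rich protein that binds zinc, copper and cadmium, was the most abundant of the 130 genes in rEEOs. It had 0, 1 and 1 counts in rBMSCs and 5631, 5201 and 14048 counts in rEEOs, which correspond to 5228, 4356 and 11990 TPM. rEEOs replicate 3 was over 2-fold above the other two, and all 3 were far from rBMSCs (ratio 12412, and 7560 without replicate 3, 95% counting interval 3436 to 102490; edgeR, adjusted p = 5.3e-05). Mt3, a metallothionein of the nervous system, had 3, 1 and 11 counts in rEEOs and 0 in rBMSCs, too few to test. The promoter window of Mt1 held 6 matches to the metal response element core, searched on both strands as TGCACNC and TGCGCNC, a motif that was added after the Mt1 values had been seen. The stretch from 186 to 29 bases before the start (chr19:10833004-10833161, minus strand, GRCr8) carries them, shown in capitals because no other window of the 130 genes had more than 3.
Mt1: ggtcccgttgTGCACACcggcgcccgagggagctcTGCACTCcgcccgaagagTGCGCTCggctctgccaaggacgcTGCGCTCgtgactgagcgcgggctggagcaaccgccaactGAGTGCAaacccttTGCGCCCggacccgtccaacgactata
A match to this core was not particular to the 130 genes, since 28.6% of their windows and 27.6% of the protein-coding windows held at least 1.

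The cytochrome P450 families, which oxidise steroids, fatty acids and foreign compounds, held called genes in both directions. Of 17 tested, with their electron donor Por, 6 were called higher (35.3%) and 3 lower (17.6%), against 16.3% and 13.3% of all genes tested. The 6 had under 10 counts in every rBMSCs library, and the 3 had under 10 in every rEEOs library. Each was therefore tested only through the cell type where it was high. Cyp1b1, which oxidises estrogens and aryl hydrocarbons, was the leading P450 of rBMSCs, with 56.0, 51.4 and 63.7 TPM, and had 0, 0 and 1 counts in rEEOs (ratio 7751, 95% counting interval 1391 to 306180; adjusted p = 6.3e-06). Its relative Cyp1a1 went the other way, with 0.20, 0.04 and 0.21 TPM in rBMSCs and 64.5, 7.86 and 9.37 TPM in rEEOs (log2 fold change 7.54 ± 1.07, adjusted p = 0.00114). rEEOs replicate 1 was well above the others, and the log2 fold change was 6.26 without it. Both are classic targets of the aryl hydrocarbon receptor. The receptor gene Ahr was called lower in rEEOs, with 18.7, 17.1 and 21.6 TPM in rBMSCs and 6.66, 1.26 and 2.10 TPM in rEEOs (log2 fold change -2.41 ± 0.48, adjusted p = 0.00481). Its partner Arnt also fell, by 1.29 on the log2 scale (adjusted p = 0.0141). A list of xenobiotic receptors and associated genes had 5 tested (Ahr, Arnt, Tiparp, Rxra and Rxrb), and none was higher. Nr1i3 had at most 1 count in a library and was not tested, and Nr1i2 was not held. The xenobiotic response element core GCGTG, searched on both strands, was in 50.4% of the windows of the 130 genes and in 34.7% of the protein-coding windows. The protein-coding windows were not limited to genes with counts, as the 130 genes were. Cyp1b1 held matches to this core, and none was found for Cyp1a1.

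Cyp24a1, which inactivates the hormonal form of vitamin D, had 0 counts in rBMSCs and 158, 50.2 and 20.2 TPM in rEEOs, at least 859-fold higher (adjusted p = 0.00157). Replicate 1 was the highest, and the bound was 499-fold without it. Cyp2t1 had 3, 1 and 2 counts in rBMSCs and 33.4, 5.51 and 26.3 TPM in rEEOs (ratio 175, 95% counting interval 80.0 to 477). Cyp2f4, Cyp27a1 and Cyp4f39 were called higher at under 10 TPM in each rEEOs library. Cyp4f5 had 4.54, 3.91 and 4.94 TPM in rBMSCs and 0 counts in rEEOs, at least 33.0-fold lower, and Cyp2j4 was called lower from under 2 TPM. Por, which feeds electrons to all microsomal P450 enzymes, had 50.8, 50.6 and 47.5 TPM in rBMSCs and 121, 45.5 and 72.3 TPM in rEEOs. Its groups overlapped through rEEOs replicate 2 (log2 fold change 0.86 ± 0.23, adjusted p = 0.0163).

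The conjugating enzymes for glucuronic acid and sulfate stood at modest levels, with a summed TPM of 9.83 ± 0.68 in rBMSCs and 97.9 ± 17.2 in rEEOs. Of the 10 tested, 8 were called higher and 1 lower, against 16.3% and 13.3% of all genes tested. Ugt1a5, Ugt1a9, Sult1b1, Sult2b1, Sult1c2a and Sult1d1 had 0 counts in rBMSCs. These genes entered the test only through rEEOs and could not have been called lower, so the count says little about the group. Ugt1a6, which conjugates small phenols, had 1.3, 1.46 and 1.96 TPM in rBMSCs and 35.4, 50.5 and 45.5 TPM in rEEOs (log2 fold change 5.10 ± 0.35, adjusted p = 5.7e-05). Ugt1a2 rose by 6.07 (6.73 without rBMSCs replicate 3), from at most 0.81 TPM to 46.0, 13.7 and 22.3 TPM, and Ugt1a9 was at least 117-fold higher. Ugt1a8 did not pass (-0.13, adjusted p = 0.869). The Ugt1a transcripts share their last exons, and the files give fractional counts for them, so how reads were divided among them is uncertain. Of the sulfotransferases, Sult1b1, Sult2b1, Sult1c2a and Sult1d1 had 0 counts in rBMSCs and at most 4.97 TPM in rEEOs, and the bounds of Sult1c2a and Sult1d1 fell from 18.0 and 12.3-fold to 8.99 and 5.07-fold without rEEOs replicate 3. Sult5a1 ran opposite, with 6.04, 4.90 and 3.99 TPM in rBMSCs and 2, 0 and 0 counts in rEEOs (ratio 59.1, 95% counting interval 16.0 to 494). With genes at 0 set to their bounds, the median log2 fold change of the group was 3.75, and without that step 7.37.

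Among epoxide hydrolases and carbonyl-reducing enzymes, 5 of 9 tested were called higher and 1 lower, against 16.3% and 13.3% of all genes tested. Ephx2, Akr1c19, Akr1b10 and Akr1c12 had at most 3 counts in every rBMSCs library and were tested only through rEEOs. Ephx1, the microsomal epoxide hydrolase, had 10.2 TPM in each rBMSCs library and 50.9, 33.0 and 27.6 TPM in rEEOs (log2 fold change 2.09 ± 0.17, adjusted p = 0.000105), close to the fold limit. Ephx2, the soluble form, had 3, 2 and 3 counts in rBMSCs and 6.81, 9.0 and 10.02 TPM in rEEOs (ratio 69.0, 95% counting interval 34.8 to 161). Akr1c19, Akr1b10 and Akr1c12 were called higher from 0 or 1 counts per rBMSCs library, and Akr1c14 was called lower from about 1 TPM. Akr1a1, an aldehyde reductase, made up 92.6% of the summed TPM of this group in rBMSCs and 83.1% in rEEOs, with 773, 822 and 768 TPM in rBMSCs and 538, 479 and 503 TPM in rEEOs. The groups did not overlap in TPM, yet the fitted log2 fold change of -0.36 ± 0.16 did not pass (adjusted p = 0.0877). It was 0.01 with library size as the only scaling, under which the median of all genes tested rose by 0.38.

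Aldehyde and alcohol dehydrogenases differed little in their sum, at 751 ± 3.55 TPM in rBMSCs and 776 ± 191 TPM in rEEOs, while the gene with the highest mean differed. Aldh2, the mitochondrial enzyme that clears acetaldehyde, led in rEEOs, with 145, 150.5 and 142 TPM in rBMSCs and 385, 216 and 298 TPM in rEEOs (log2 fold change 1.26 ± 0.15, adjusted p = 0.000527). Aldh9a1 had the highest mean in rBMSCs, with 168, 162 and 164 TPM there and 114, 72.5 and 80.8 TPM in rEEOs (-0.66, adjusted p = 0.00283). It was nearly level with Aldh7a1 (155, 165 and 166 TPM in rBMSCs), which was the higher of the pair in rBMSCs replicates 2 and 3. Aldh5a1 and Adh1 were called higher, Adh1 from 0 counts to 9.14, 2.03 and 4.81 TPM, at least 32.0-fold higher. Aldh3a2 and Aldh18a1 fell by 1.35 and 1.16 on the log2 scale. Adh7 did not pass (adjusted p = 0.427), with rEEOs libraries at 0.23, 6.93 and 3.52 TPM that all lay below the rBMSCs.

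Of the flavin monooxygenases, Fmo5 had 1.05, 0.40 and 1.1 TPM in rBMSCs and 28.3, 18.3 and 22.3 TPM in rEEOs (log2 fold change 4.99 ± 0.36, adjusted p = 6.4e-05). Fmo4 was called higher from lower levels (3.78, adjusted p = 0.011, and 5.29 without rBMSCs replicate 1). Maob, a mitochondrial amine oxidase, was not tested, with 9, 23 and 14 counts in rBMSCs and 1, 0 and 0 in rEEOs.

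The NADPH and dual oxidases, which produce superoxide or hydrogen peroxide on purpose, were scarce in both cell types, with a summed TPM of 0.35 to 2.72 over the 6 libraries. Duoxa1, a maturation factor of the dual oxidases, was called lower, with 27, 31 and 26 counts in rBMSCs and 4, 4 and 2 in rEEOs (log2 fold change -3.02 ± 0.36, adjusted p = 0.000535). Duox2 had 17.7, 14 and 11 expected counts in rBMSCs and 133, 3 and 30 in rEEOs, which did not pass (1.76 ± 0.99, adjusted p = 0.161). Its log2 fold change was 0.39 (adjusted p = 0.656) without rEEOs replicate 1 and 2.32 (adjusted p = 0.0167) without rEEOs replicate 2. Duox1 had at most 11 counts in any library. Nox4 had 0, 0 and 1 counts in rBMSCs and 22, 1 and 7 in rEEOs, and Nox1 summed to fewer than 10 counts and so was not kept. The partner subunits of these oxidases, from a separate list, were better represented. Of 7 held, 5 were tested, 4 were called higher in rEEOs and the other, Cyba, rose by 0.53 (adjusted p = 0.0274). Over all genes tested, 16.3% were called higher, and 33.3% were higher at the adjusted p alone. The 4 called (Noxo1, Ncf4, Noxa1 and Rac2) had at most 1 count in every rBMSCs library. They were tested only through rEEOs and could not have been called lower, so the count says little about the list. Noxo1, the organiser subunit of the epithelial oxidase, had 0 counts in rBMSCs and 46.3, 38.1 and 33.6 TPM in rEEOs, and Ncf4, a subunit of the phagocyte oxidase, had 54.8, 74.1 and 53.8 TPM against at most 1 count in an rBMSCs library. Noxa1 and Rac2 had 0 counts in rBMSCs, and the Rac2 level came mainly from rEEOs replicate 1 (21.5, 2.27 and 1.57 TPM in rEEOs). Cybb, the catalytic subunit in phagocytes, had 5, 0 and 0 counts in rEEOs. Some of these subunits are known from blood cells. The summed TPM of the 7 blood cell markers held was 0.39 to 1.07 in rBMSCs and 32.8 to 134 in rEEOs, nearly all of it Cd68, which was called higher. Of the other 6 markers, Adgre1 had 18, 0 and 4 counts in rEEOs, Aif1 had 3, 8 and 1, Fcer1g, Csf1r and Spi1 had at most 4, and Laptm5 had 0. The part of such cells in the subunit levels was not tested.

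The efflux pumps, which move drugs and conjugates out of the cell, had a summed TPM of 43.1 ± 5.01 in rBMSCs and 566 ± 216 in rEEOs. Abcb1b, a P-glycoprotein that exports many drugs, had 6.09, 4.90 and 6.56 TPM in rBMSCs and 590.1, 388 and 263 TPM in rEEOs (log2 fold change 6.36 ± 0.29, adjusted p = 1.4e-05). Its near-identical neighbour Abcb1a had 5.03, 4.32 and 5.70 TPM in rBMSCs and 14.4, 6.10 and 4.42 TPM in rEEOs and did not pass (0.90 ± 0.34, adjusted p = 0.0546), although it did without rEEOs replicate 1 (0.50, adjusted p = 0.0462) or replicate 3 (1.15, adjusted p = 0.0187). The Abcb1b to Abcb1a ratio was 1.21, 1.13 and 1.15 in rBMSCs and 40.9, 63.5 and 59.6 in rEEOs. Both genes held fractional counts, so reads could have been shared between them. Abcg2, the breast cancer resistance protein and a marker of side population cells, had 1, 5 and 2 counts in rBMSCs and 109, 54.4 and 70.4 TPM in rEEOs (log2 fold change 9.35 ± 0.40, adjusted p = 1.1e-05, and 10.11 without rBMSCs replicate 2). Abcc3 was called higher (2.25, adjusted p = 0.00191), a call lost under the fold limit without rEEOs replicate 2 (1.92) and in limma, and Abcc4 rose by 1.22 ± 0.34 (adjusted p = 0.0202) with rEEOs replicate 2 inside the rBMSCs range. Abcc9, a regulatory subunit of potassium channels in the same family, had 40, 40 and 48 counts in rBMSCs and 0 in rEEOs, at least 13.9-fold lower. Abcb10 did not pass (adjusted p = 0.0807).

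Genes around these pathways were read from further lists. In glutathione breakdown and the disposal of its conjugates, 10 were tested, 2 were called higher and 1 lower, against 16.3% and 13.3% of all genes tested. Hagh, the glyoxalase that completes the removal of methylglyoxal, had 15.9, 17.3 and 14.1 TPM in rBMSCs and 92.8, 95.5 and 96.5 TPM in rEEOs (log2 fold change 2.88 ± 0.22, adjusted p = 8.1e-05), while Glo1, the enzyme before it, fell by 1.13. Acy3, which acts on mercapturates, rose by 2.49. Dpep1, a dipeptidase that cleaves cysteinylglycine, had 28.1, 28.7 and 24.1 TPM in rBMSCs and 0 counts in rEEOs. Of 7 glutaredoxin and methionine sulfoxide reductase genes, Msrb3 was called lower, with 122.96, 103 and 125 TPM in rBMSCs and 0.85, 0.42 and 0.67 TPM in rEEOs, and Msrb2 rose by 1.95, below the fold limit. The other 5 did not pass. Of 6 genes of selenoprotein synthesis, which serves Gpx1 to Gpx4 and the thioredoxin reductases, Pstk was called higher (2.03), Secisbp2 and Eefsec rose by 1.71 and 0.56, and Sephs1 fell by 0.61. The Pstk call lay at the fold limit and was lost in limma and without rBMSCs replicate 3 or rEEOs replicates 2 or 3. At the adjusted p alone, 3 of these 6 genes were higher and 1 lower. For this list and the one before it, the shares over all genes tested were 16.3% called higher and 13.3% called lower. At the adjusted p alone they were 33.3% and 30.2%.

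The 22 genes with an antioxidant response element core in their window were set against this. 18 were tested, of which 7 were called higher (against 37.5% of all 112) and 0 lower in edgeR, and 12 were higher and 2 lower at the adjusted p alone. The 7 include Gstp1, Gclm, Gpx2, Ephx1, Sod2 and Mt1, whose sequences are printed above, while Prdx1 and Txnrd1 rose by less than the fold limit. A share of 7 in 18 is close to that of the 112.

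The 3 rEEOs libraries differed among themselves more than the rBMSCs libraries did. On the log2(CPM + 1) scale the 112 genes had a median SD of 0.0967 among rBMSCs and 0.424 among rEEOs, which was 0.217 for rEEOs replicates 2 and 3 alone. The same medians over the whole table were 0.0877, 0.34 and 0.164. Of the 96 genes with a mean of at least 1 TPM in rEEOs, replicate 1 lay over 2-fold above both others in 10 (10.4%, against 21.9% of all genes) and over 2-fold below both in 7 (7.29%, against 2.71%). Cyp1a1 and Cyp24a1 were among the former and Gsta4, Gsta5 and Gstm1 among the latter. Without rEEOs replicate 1, 44 genes were called higher and 12 lower. Of the 87 genes that passed the adjusted p, 15 lost it when at least 1 of the 6 libraries was left out, among them Nfe2l2, Nfe2l1, Gclc, Por, Txnrd1, Txnrd3, Prdx6, Gstm2, Abcc4, Gpx3 and Sod3. Of the 25 that did not pass, 10 did so in at least one such fit, 7 of them without rEEOs replicate 1.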

How the data were processed

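The authors sequenced RNA of 3 rEEOs and 3 rBMSCs samples on a BGISEQ instrument, with single-end reads of 150 bases. Per the labels, reads were trimmed with Trim Galore and aligned with Bowtie2 2.2.5 to Rnor 6.0, and the methods state RSEM for expression. The deposited table, of which the copy held ends partway through its last row, holds RSEM expected counts, TPM and FPKM by the authors for each library. Its TPM reach 81.3 to 82.7% of their fixed total over the rows held, so some genes are not analysed here (Sod1, Txnip, Srxn1, Maoa, Abcc1 and Ggt1 among them). FPKM values were not used for any result. The 130 member genes took 0.528 to 0.570% of the counts in rBMSCs and 1.50 to 1.72% in rEEOs.

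The members and lists were chosen with earlier results of these data known. After rounding of the expected counts, the 10607 genes that reached 10 counts in 3 or more libraries were kept, and edgeR 4.0.16 (TMM scaling, quasi-likelihood test, cell type as the only term) was fitted on all of them with Benjamini-Hochberg adjustment. The step was tested on simulated data first. TMM factors were 0.866 to 0.885 in rBMSCs and 1.10 to 1.20 in rEEOs. A gene was called at an adjusted p below 0.05 and an absolute log2 fold change above 2, the thresholds the study used. Levels are TPM, which is scaled per length. Where one cell type had 0 counts, a fold is a bound against 3 counts per library. Where it had 1 to 3 counts at most per library, the ratio of scaled counts is given with a 95% exact interval. These intervals and bounds cover counting error only. Counts that were not whole, shared by RSEM among similar genes, also occurred in Cyp4f5, Aldh9a1, Aldh18a1, Akr1b10, Sult1c2a, Duox1 and Duox2.

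Alternatives were DESeq2 1.42.0, other scaling, other count filters, limma 3.58.1 on log2 TPM with pseudocounts of 1 and 0.1, a replicate block, another fold limit and leaving out each library. Named genes were those of fixed role, the most abundant of each enzyme group in either cell type, called genes with a mean of at least 20 TPM, and members of counts of 5 or fewer. Any other gene was named after its values were seen. Promoter windows came from RefSeq (GRCr8) by gene and are independent of the build of the files. 1 gene of a pathway list is counted but not reported here.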

Additional observations from a re-analysis of the deposited data

How the results depend on the processing

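Over the alternatives, the number of genes called higher ranged from 28 (limma on log2(TPM + 1), 98 genes tested) to 54 (absolute log2 fold change above 1), with 42 in edgeR and 42 in DESeq2. The number called lower was 7 with a filter of 50 counts in 3 libraries, which left 87 genes to test, and 9 to 18 otherwise. Leaving out one library at a time gave 42 to 44 higher and 11 to 12 lower, and at the adjusted p alone 54 to 71 higher and 19 to 23 lower. Same-numbered replicates did not deviate together (correlations 0.142, 0.159 and -0.126), and the replicate block gave 42 higher and 12 lower by the call and 62 and 22 at the adjusted p alone.

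Of 714 values for 48 named genes under 15 alternatives, 688 kept their direction and their side of the call (adjusted p and fold limit together), 11 lost and 6 gained a call, and 9 changed sign. At the adjusted p alone, 8 of the 42 named genes that passed lost it under at least 1 alternative and 5 of the 6 others gained it. The highest adjusted p was 0.524 for Nfe2l2, 0.244 for Txnrd1, 0.221 for Abcc4 and 0.192 for Por, all in limma on TPM, and 0.113 for Gclc and 0.0958 for Aldh9a1 with library size only. The sign changes were of genes near 0. Akr1a1 was at 0.0109 with library size only. Cat was at 0.37 with library size only, 0.0178 with the filter of 50 counts, and between -0.10 and 0.0862 when single libraries were left out (positive without rBMSCs replicate 1 or 3 and without rEEOs replicate 1 or 2). Keap1 was at -0.13 in both limma fits. Ephx1, Gpx1 and Duoxa1 fell under the fold limit in limma on log2(TPM + 1). Depth limits the genes with few counts, of which 18 were not tested. The causes of these changes were not tested.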
